A study of Mus musculus with 9 samples.

Results

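Resident alveolar macrophages were followed in whole mouse lung through 9 genes that mark them: Marco, Mrc1, Itgax, Pparg, Fabp4, Siglecf, Krt79, Plet1 and Ear1. The members were taken by name, as all non-control probes whose RefSeq transcript belongs to one of these symbols. All 9 were found, on 13 of the 56605 probes of the array, and they are 9 of the 16842 genes that were tested. The brighter probe of each member was well above background on all 9 arrays, so every member passed the filter on dim probes, and a level could be given in every lung.

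Alveolar macrophages live in the air spaces, where they clear surfactant, inhaled particles and dying cells. They settle around birth, when GM-CSF from alveolar type 2 cells and TGF-beta switch on the nuclear receptor PPAR-gamma (Pparg), and they then renew themselves with little input from blood monocytes. PPAR-gamma in turn drives genes of lipid handling, and the cells are recognised by high CD11c (Itgax) together with Siglec-F (Siglecf), a pair that other lung macrophages lack.

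RNA from 9 whole lungs was hybridised to 9 one-colour Agilent arrays, 1 per lung. Every mouse, controls included, carried floxed alleles of TRF1 (TRF1flox/flox), the telomere protein encoded by Terf1, and every mouse was given tamoxifen, 250 mg/kg weekly, starting when 8 weeks old. The 6 SPC-creTRF1flox/flox mice also carried cre under the surfactant protein C promoter, which is active in alveolar type 2 cells and is not a macrophage promoter. The early animals were 5 months old with 3 months of tamoxifen behind them (3-month cre, n = 3), and the late animals were 11 months old with 9 months of tamoxifen (9-month cre, n = 3). The controls were cre-negative littermates, also 11 months old with 9 months of tamoxifen (n = 3). The labels call the lungs of a group biological replicates.

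Levels are log2 processed signal relative to the 75th percentile of the same array, which stood at 958.4 to 1430 intensity units against a median local background of 28 to 35. They compare a gene between lungs, not genes with each other, since probes differ in brightness. Terf1 was at a log2 level of -0.07 ± 0.28 (SD, n = 3) in controls, -0.63 ± 0.05 in 3-month cre and -0.59 ± 0.33 in 9-month cre lungs, and neither difference from controls was called (adjusted p = 0.19 and 0.131). The arrays lay on 2 slides: 3-month cre replicate 1 shared slide 1 with all controls, and the other arrays were on slide 2. Xist, the RNA of the inactive X chromosome, was at log2 levels of -7.91 to -7.40 in all controls, at -8.19 in 3-month cre replicate 2 and -8.08 in 9-month cre replicate 1, and at -1.33 to -0.71 in the other 4 cre lungs, so that the groups also differed in a feature the labels do not give. The 3-month cre mice were younger than the controls, and genotype, age and length of tamoxifen cannot be told apart in that comparison. In whole lung, more cells of a type and more RNA per cell cannot be told apart either.

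Promoter windows from RefSeq on GRCm38.p6, running from 250 bases before to 50 after a gene's start, were available for 8 of the 9 members. They were searched on both strands for GAGGAA, the core bound by the myeloid factor PU.1, and AGGTCA, the repeat unit bound by nuclear receptors such as PPAR-gamma. The windows of Mrc1 and Plet1, whose probes passed the test below, and those of Marco and Siglecf, whose 9-month means lay on opposite sides of the control means, are printed with either motif in capitals on whichever strand it lies (TTCCTC and TGACCT are the reverse strand).
Mrc1 (chr2:14229164-14229463, plus strand): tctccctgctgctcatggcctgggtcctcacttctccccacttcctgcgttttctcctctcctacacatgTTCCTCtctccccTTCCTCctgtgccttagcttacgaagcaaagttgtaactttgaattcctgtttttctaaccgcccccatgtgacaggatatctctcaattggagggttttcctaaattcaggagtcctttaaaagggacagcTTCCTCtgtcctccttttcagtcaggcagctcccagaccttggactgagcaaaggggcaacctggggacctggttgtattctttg
Plet1 (chr9:50494275-50494574, plus strand): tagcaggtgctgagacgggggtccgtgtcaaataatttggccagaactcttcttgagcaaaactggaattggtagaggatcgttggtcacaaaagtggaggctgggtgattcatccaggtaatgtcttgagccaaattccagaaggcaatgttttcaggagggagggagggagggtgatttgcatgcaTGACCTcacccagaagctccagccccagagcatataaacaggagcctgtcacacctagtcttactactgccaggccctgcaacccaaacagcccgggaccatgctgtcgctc
Marco (chr1:120504975-120505274, minus strand): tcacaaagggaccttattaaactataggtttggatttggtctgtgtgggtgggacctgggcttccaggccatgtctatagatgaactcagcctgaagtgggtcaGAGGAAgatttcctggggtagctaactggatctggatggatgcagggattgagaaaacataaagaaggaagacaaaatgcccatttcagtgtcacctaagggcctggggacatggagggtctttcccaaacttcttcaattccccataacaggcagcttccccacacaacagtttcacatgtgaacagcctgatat
Siglecf (chr7:43351091-43351390, plus strand): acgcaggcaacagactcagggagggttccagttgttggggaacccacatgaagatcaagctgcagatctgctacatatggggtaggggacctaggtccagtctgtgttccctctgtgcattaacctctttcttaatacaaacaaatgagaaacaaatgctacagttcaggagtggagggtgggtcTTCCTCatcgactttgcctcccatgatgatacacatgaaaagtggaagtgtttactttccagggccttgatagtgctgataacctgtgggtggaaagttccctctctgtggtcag
The Mrc1 window held GAGGAA 3 times, at -180, -167 and -35 relative to the start, and those of Marco and Siglecf once each. Plet1 held AGGTCA once, at -62. Of all 32851 windows of this length, 28.3% held GAGGAA and 16.3% held AGGTCA. Of the members' 10 windows, 3 of which belong to Pparg, 4 held the first (Marco, Mrc1, Siglecf and 1 of Pparg) and 3 the second (Plet1 and 2 of Pparg). The windows of Itgax, Krt79 and Ear1 held neither.

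The early collection was set against the controls first. Of the 9 members 8 had a higher mean in 3-month cre lungs, and 1 of them, Mrc1, rose past the test, where 0.368% of the 16842 genes with a test were called higher and 0.0831% lower (limma, adjusted p under 0.05). The median log2 difference over the members was 0.94, against 0.05 over all genes. For 6 members every 3-month cre lung lay above every control lung, as 19.6% of genes did. At an unadjusted p under 0.05, 5 members were higher and 0 lower, against 11.6% and 7.1% of genes.

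Mrc1 encodes the mannose receptor CD206, which takes up glycoproteins and microbial sugars. Its log2 level was 1.94, 1.87 and 2.23 in the controls and 3.10, 3.23 and 3.29 in the 3-month cre lungs. The groups did not overlap, and the spread within each was small beside the gap between them. Mrc1 rose by 1.19 ± 0.15 (SE of the fit, n = 3 against 3; adjusted p = 0.0298), which is 2.28-fold. The single 3-month cre lung on slide 1 stood 1.08 above the controls of the same slide. With slide as a block the 3-month difference rests on that lung alone, so its 1.08 (adjusted p = 0.503) is the same value by design. The call was lost without control replicate 1 (1.15, adjusted p = 0.0919) or 2 (1.12, adjusted p = 0.137) and without 3-month cre replicate 2 (1.18, adjusted p = 0.136) or 3 (1.15, adjusted p = 0.121).

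Itgax encodes CD11c, an integrin chain also carried by dendritic cells. It stood at 3.02, 2.65 and 2.39 in controls and at 3.95, 4.10 and 4.03 in 3-month cre lungs. The 3-month cre lungs lay close together and above all controls. The difference of 1.34 ± 0.38 was not called (adjusted p = 0.138) in the fit that shares 1 estimate of spread over the 3 groups. It was called with the 2 groups alone (adjusted p = 0.0258) and without 9-month cre replicate 2 (adjusted p = 0.0341).

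Marco encodes a scavenger receptor for unopsonised particles and bacteria. Controls were at 1.06, 0.68 and 1.64 and 3-month cre lungs at 1.87, 1.68 and 3.07. The groups just failed to touch, and replicate 3 stood well above the other two 3-month cre lungs. The difference was 1.08 ± 0.69 (adjusted p = 0.428), with a 95% interval of -0.50 to 2.66.

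Siglecf encodes Siglec-F, a sialic acid receptor of alveolar macrophages and eosinophils. Its level was 0.19, -0.24 and 0.83 in controls and 0.81, 1.28 and 1.08 in 3-month cre lungs. Control replicate 3 reached into the 3-month cre range. The difference was 0.80 ± 0.41 (adjusted p = 0.331).

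Pparg, the lineage-determining nuclear receptor, was at 1.36, 1.56 and 1.52 in controls and at 1.96, 2.05 and 2.14 in 3-month cre lungs. The groups were separate and both narrow. The difference of 0.57 ± 0.16 was not called over all groups (adjusted p = 0.133) and was called with the 2 groups alone (adjusted p = 0.0498). Fabp4 encodes a fatty acid binding protein that PPAR-gamma induces in macrophages and fat cells. It was the exception in direction, at 2.25, 4.98 and 4.07 in controls and 4.37, 3.25 and 2.66 in 3-month cre lungs. The controls alone spanned more than the cre lungs did, and the difference was -0.34 ± 0.66 (adjusted p = 0.814). It turned to 0.60 within slide 1, to 0.27 without control replicate 2 and to 0.04 without 3-month cre replicate 3.

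Plet1 encodes a GPI-anchored surface protein of progenitor epithelium that mouse alveolar macrophages also make. On its brighter probe the level was 2.72, 2.50 and 2.93 in controls and 3.83, 4.04 and 3.98 in 3-month cre lungs. Every cre lung lay far above every control. The difference was 1.24 ± 0.26 (adjusted p = 0.091), and on the dimmer probe Plet1 rose by 1.31 ± 0.15 (adjusted p = 0.0203 over 24368 named probes, of which 0.435% were called higher). The brighter probe was called with the 2 groups alone (adjusted p = 0.019) and without 9-month cre replicate 1 (adjusted p = 0.0204), and the mean of both probes was called too (1.27, adjusted p = 0.0426).

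Krt79 encodes a type II keratin of hair follicle and sebaceous duct that appears in mouse alveolar macrophage signatures. It stood at 2.88, 2.33 and 2.63 in controls and at 3.23, 3.29 and 3.31 in 3-month cre lungs. The 3-month cre lungs were nearly identical to each other and above the controls. The difference was 0.67 ± 0.38 (adjusted p = 0.371). Ear1 encodes an eosinophil-associated ribonuclease, and its probe may also bind transcripts of close relatives such as Ear2, so its level is uncertain by gene. It was at 2.79, 2.38 and 3.59 in controls and 3.42, 4.27 and 3.91 in 3-month cre lungs. Control replicate 3 lay inside the cre range. The difference was 0.94 ± 0.36 (adjusted p = 0.217), and the Ear2 probe gave 0.49.

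**Figure D1:**
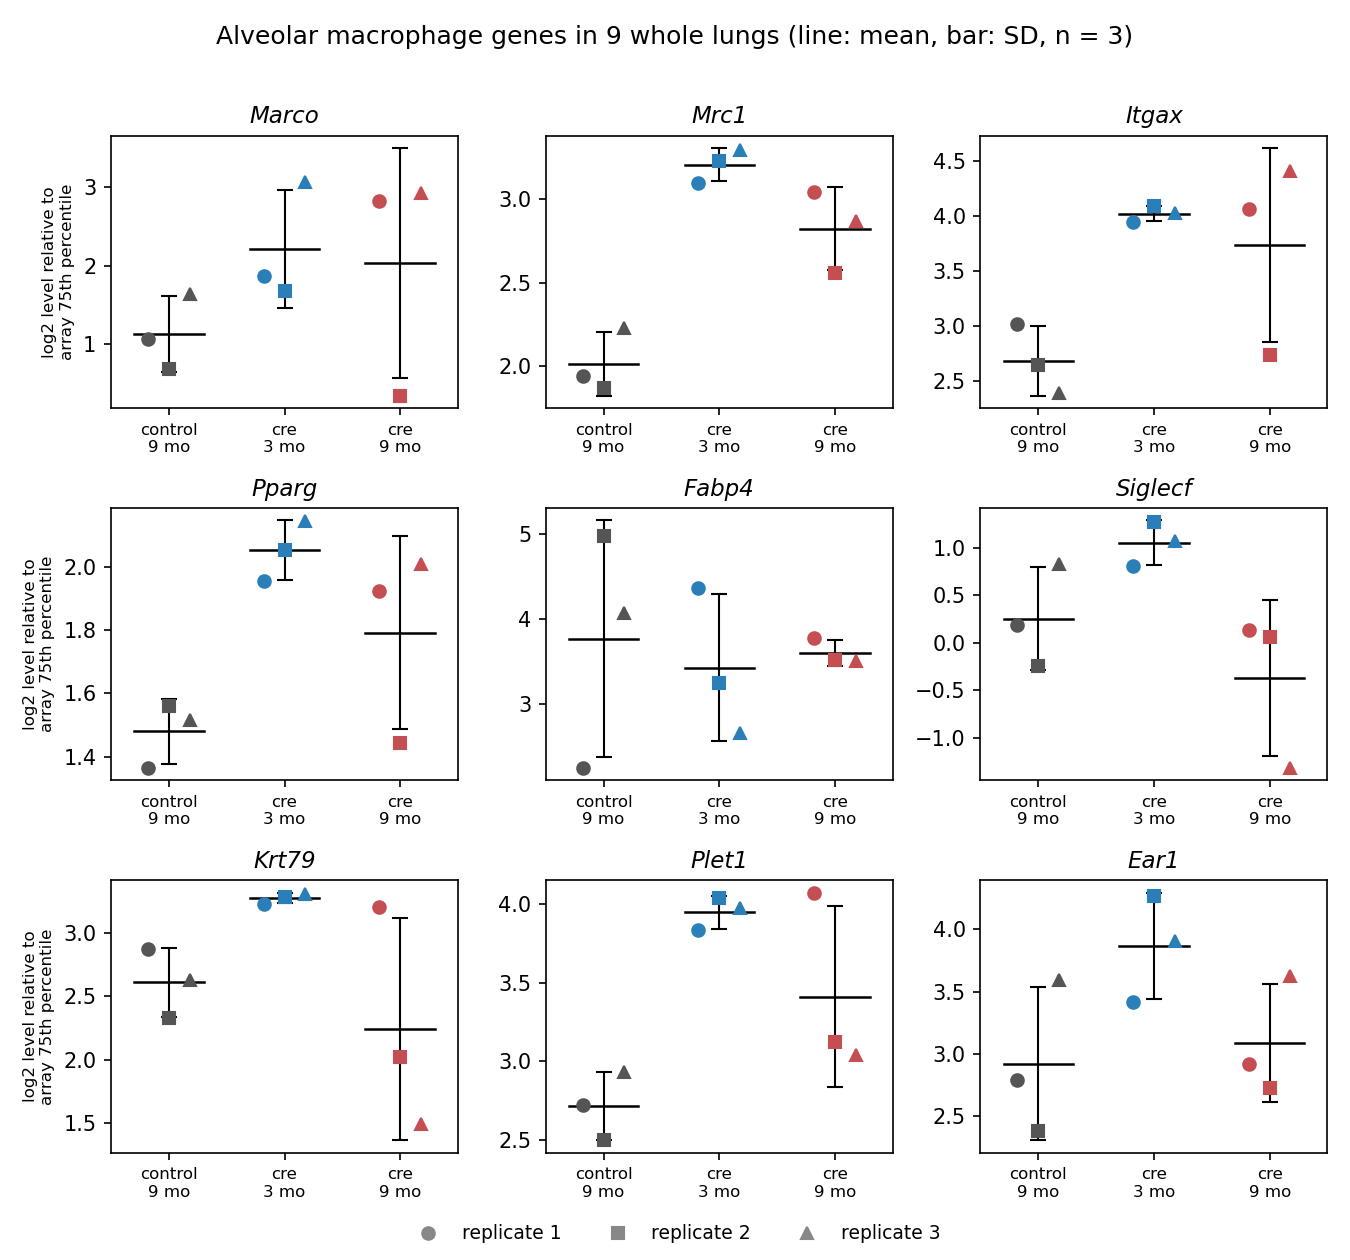
Each panel plots 1 member in 9 lungs as log2 level relative to the array 75th percentile, by group on the horizontal axis, with the group mean as a line and the SD as a bar (n = 3). In Mrc1, Itgax, Pparg, Plet1 and Krt79 the 3-month cre lungs lie tightly above the controls, and the SD of the 9-month cre lungs is larger than that of the 3-month cre lungs in every panel but Fabp4.

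Between the 9-month cre and control lungs, age and tamoxifen are equal, but Xist is not. It was low in all controls and, among the 9-month cre lungs, in replicate 1 alone. Of the 9 members 6 had a higher and 3 a lower mean, and again only Mrc1 rose past the test, while 3.65% of genes were called higher and 2.81% lower. The median over the members was 0.31, against 0.02 over all genes. Mrc1 and Plet1 were the 2 members whose 9-month cre lungs all lay above the controls, as 17.5% of genes did, and 3 members were higher at an unadjusted p under 0.05, against 14.8% of genes.

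Mrc1 was at 3.04, 2.55 and 2.87 in 9-month cre lungs, each above the highest control at 2.23. It rose by 0.81 ± 0.15 (adjusted p = 0.0266), or 1.75-fold. No slide held both groups. With slide as a block, joined through the 3-month cre arrays, the value was 0.65 (adjusted p = 0.985). The call was also lost without control replicate 1 (0.77, adjusted p = 0.0698) or 2 (0.73, adjusted p = 0.0958), without 3-month cre replicate 2 (0.81, adjusted p = 0.0525) and without 9-month cre replicate 1 (0.70, adjusted p = 0.0768).

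Itgax, Marco and Pparg shared a pattern among the 9-month cre lungs. Itgax was at 4.07, 2.74 and 4.41, Marco at 2.83, 0.34 and 2.93 and Pparg at 1.92, 1.44 and 2.01 in replicates 1, 2 and 3. In each of these genes replicates 1 and 3 stood above all controls and replicate 2 within or below them. The differences from controls were 1.06 ± 0.38 for Itgax (adjusted p = 0.123), 0.90 ± 0.69 for Marco (adjusted p = 0.42) and 0.31 ± 0.16 for Pparg (adjusted p = 0.236). These values turn on which lung is counted. Without the low replicate 2 they were 1.55 for Itgax (adjusted p = 0.00899), 1.75 for Marco (adjusted p = 0.0491) and 0.49 for Pparg (adjusted p = 0.0448), and without replicate 3 they were 0.72 (adjusted p = 0.233), 0.45 (adjusted p = 0.71) and 0.20 (adjusted p = 0.428). Replicate 2 was singled out after its values were seen, so the calls without it are a description.

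Siglecf and Krt79 behaved otherwise. Siglecf was at 0.14, 0.06 and -1.32 and Krt79 at 3.21, 2.02 and 1.49 in 9-month cre replicates 1, 2 and 3. Replicate 3, high in Itgax and Marco, was here the lowest of all 9 lungs for both genes. The differences from controls were -0.63 ± 0.41 for Siglecf (adjusted p = 0.347) and -0.37 ± 0.38 for Krt79 (adjusted p = 0.544). Without replicate 3 the differences were -0.15 for Siglecf (adjusted p = 0.756) and 0.00098 for Krt79. With Xist as a covariate they were -0.27 for Siglecf and 0.084 for Krt79.

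Plet1 on its brighter probe was at 4.07, 3.12 and 3.04, and replicate 1 alone reached the 3-month cre levels. Replicate 1 was also the only 9-month cre lung with low Xist, at -8.08. The difference from controls was 0.70 ± 0.26 (adjusted p = 0.133), and 1.05 with Xist as a covariate (adjusted p = 0.08). On the dimmer probe Plet1 rose by 0.68 ± 0.15 (adjusted p = 0.0421), where 2.81% of probes were called higher. Ear1 at 2.92, 2.73 and 3.62 and Fabp4 at 3.77, 3.51 and 3.51 lay inside the control range in all 3 lungs but for the upper Ear1 value, and their differences were 0.17 ± 0.36 (adjusted p = 0.786) and -0.17 ± 0.66 (adjusted p = 0.888).

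The direct comparison of 9-month with 3-month cre lungs, which differ in age and tamoxifen together, asked how the early pattern stood later. Of the 9 members 8 had a lower mean at 9 months, with a median of -0.38 against -0.03 over all genes. On the brighter probes 0 members were called in limma, where 1.79% of genes were called higher and 3.2% lower, and 3 members were lower at an unadjusted p under 0.05, against 16% of genes. Mrc1, Siglecf and Krt79 were the 3 whose 9-month lungs all lay below the 3-month lungs, as 19% of genes did.

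Siglecf had the lowest value, -1.43 ± 0.41 (adjusted p = 0.071), with a 95% interval of -2.37 to -0.48, which is 0.372 of the 3-month level. Its other probe gave -1.57 ± 0.44 (adjusted p = 0.0573). Krt79 followed at -1.04 ± 0.38 (adjusted p = 0.118) and ran from -0.67 (adjusted p = 0.203) without 9-month cre replicate 3 to -1.52 (adjusted p = 0.0449) without replicate 1. Within slide 2, which held all 9-month and 2 of the 3-month cre lungs, mean Siglecf levels were -0.37 and 1.18 and mean Krt79 levels 2.24 and 3.30. Ear1 was at -0.77 ± 0.36 (adjusted p = 0.198), Plet1 at -0.54 ± 0.26 (adjusted p = 0.214) and Mrc1 at -0.38 ± 0.15 (adjusted p = 0.149). The dimmer Plet1 probe fell by 0.64 ± 0.15 (adjusted p = 0.0408), the 1 of 13 member probes called, where 5.98% of probes were called lower. Pparg was at -0.26 ± 0.16 (adjusted p = 0.309), Itgax at -0.29 ± 0.38 (adjusted p = 0.659), Marco at -0.18 ± 0.69 (adjusted p = 0.894) and Fabp4 at 0.17 ± 0.66 (adjusted p = 0.893). The 95% intervals of these genes reach across 0, as do those of Ear1 (-1.6 to 0.055) and the brighter Plet1 probe (-1.14 to 0.061). A change in either direction is possible for all of them. The Itgax and Marco values turned to 0.21 and 0.67 without 9-month cre replicate 2.

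**Figure D2:**
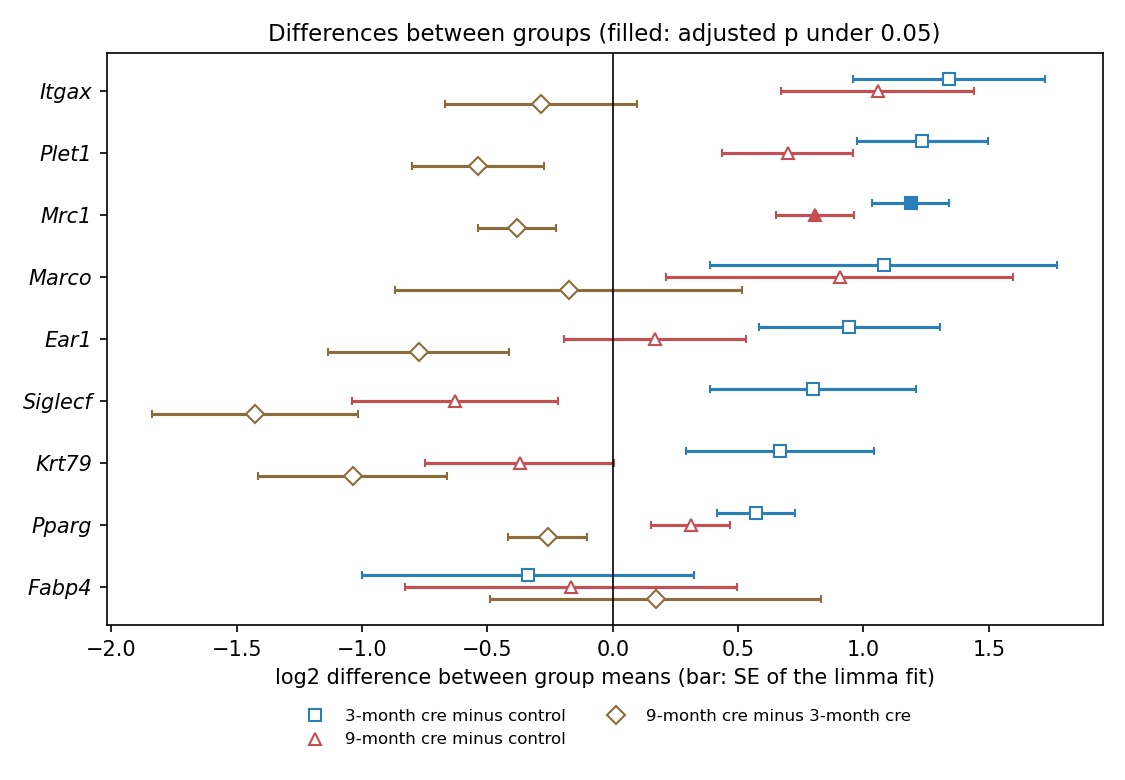
Points are log2 differences between group means for each member on its brighter probe, in the 3 comparisons, with the SE of the limma fit as bars and filled symbols at an adjusted p under 0.05. Only Mrc1 is filled, at 1.19 and 0.81 against controls. Against controls, Siglecf and Krt79 lie above 0 at 3 months and below 0 at 9 months, each time with a 95% interval that includes 0.

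Spread within a group is given beside the share over all genes. The SD of 8 of 9 members was larger in 9-month than in 3-month cre lungs, against 66.8% of all genes, and that of 8 of 9 was smaller in 3-month cre than in control lungs, against 52.6%. For 7 of 9 it was larger in 9-month cre than in control lungs, against 65.6%. Several members moved together, so they are not 9 separate cases. Itgax went from an SD of 0.32 in controls to 0.07 in 3-month and 0.88 in 9-month cre lungs, and Krt79 from 0.27 to 0.04 and 0.88. Fabp4 ran the other way, from 1.39 to 0.87 and 0.15. With 3 lungs a group, no test was made of these spreads.

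Across the 9 lungs the members fell into sets with a like course. Mrc1, Itgax and Pparg had pairwise Pearson r of 0.84 to 0.90, Mrc1 and Plet1 0.93, and Siglecf and Krt79 0.85. Between Siglecf and Itgax r was -0.05, between Siglecf and Marco -0.02, and Fabp4 was negative with all 8 others, from -0.31 to -0.07. These describe 9 arrays that also share slide and group, and carry no test.

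Itgax, Fabp4, Siglecf and Plet1 each had a second, dimmer probe. For Siglecf and Plet1 both probes put the lungs of each group in the same order. In Plet1 they parted at 9-month cre replicate 1, the highest of all lungs at 4.07 on the brighter probe and below every 3-month cre lung at -0.82 on the dimmer. For Fabp4 9-month cre replicate 1 was the highest of its group on the brighter and the lowest, at -0.90, on the dimmer probe. For Itgax the dimmer probe was well above background on only 7 of 9 arrays, its controls were at -4.46, -6.19 and -6.19, and its differences from controls were 0.58 ± 0.58 at 3 months and 0.83 ± 0.58 at 9 months (adjusted p = 0.591 and 0.384).

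**Figure D3:**
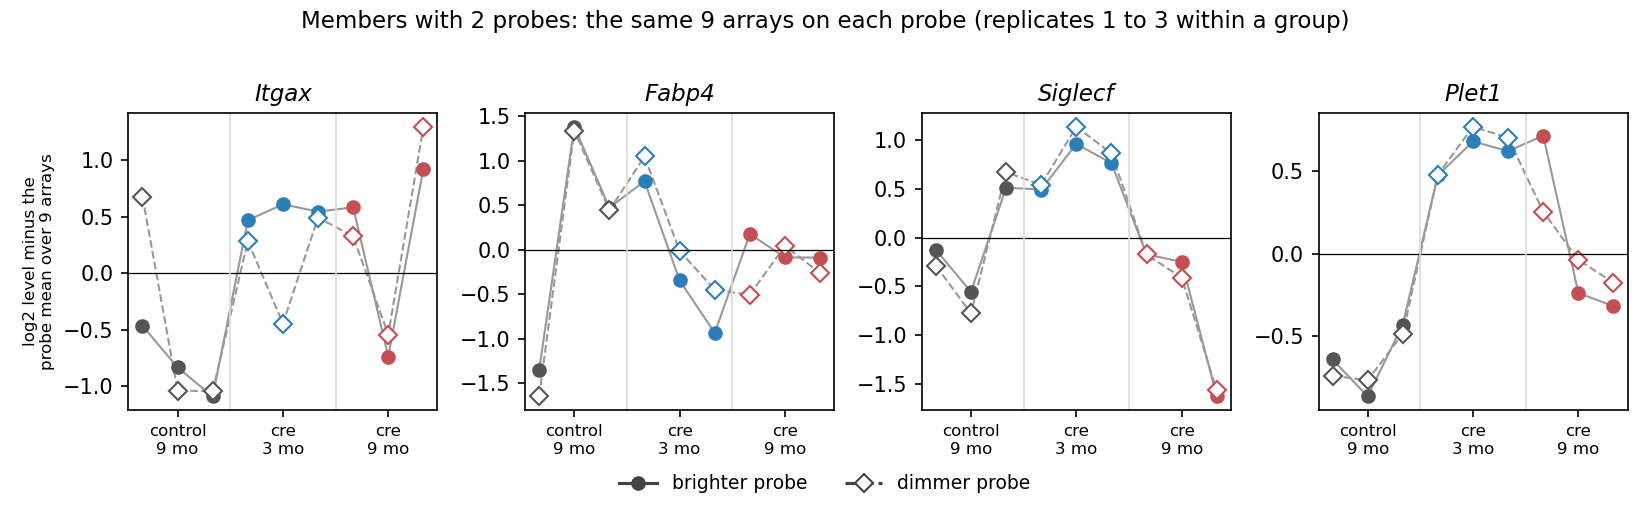
For the 4 members with 2 probes, log2 level minus that probe's mean over the 9 arrays is plotted by lung, replicates 1 to 3 within each group, with filled circles for the brighter and open diamonds for the dimmer probe. Both probes trace the same course for Siglecf and, but for 9-month cre replicate 1, for Fabp4, and they part for Itgax in control replicate 1 and 3-month cre replicate 2.

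The counts in this and the following lists are to be set beside the shares over all genes. Of all genes 0.368% were called higher at 3 months and 3.65% at 9 months. At unadjusted p under 0.05 in limma, 11.6% were higher at 3 months and 14.8% at 9 months. Between the cre groups 1.79% were called higher and 3.2% lower. The factors that set the alveolar macrophage programme were read from 14 further genes. At 3 months 0 were called in limma, with 3 higher at unadjusted p under 0.05, and Csf2rb, the shared beta chain of the GM-CSF receptor, was at 0.89 ± 0.23 (adjusted p = 0.12) and Spi1, which encodes PU.1, at 0.76 ± 0.38 (adjusted p = 0.321). The Spi1 probe was dim, at log2 levels of -5.35 to -4.54 in controls, though well above background on every array. At 9 months 3 of 14 rose: Csf2rb by 1.13 ± 0.23 (adjusted p = 0.03), Csf2ra, the GM-CSF receptor alpha chain, by 0.91 ± 0.19 (adjusted p = 0.034; call lost in 13 of 21 alternatives), and Cebpb, a myeloid transcription factor, by 0.84 ± 0.13 (adjusted p = 0.0163). Between the cre groups Cebpb rose by 0.77 ± 0.13 (adjusted p = 0.029) and the TGF-beta receptor Tgfbr1 fell by 0.58 ± 0.14 (adjusted p = 0.0494). The Tgfbr1 call was lost in 17 of 22 alternatives, and the mean of its probes gave -0.12 (adjusted p = 0.694). The list medians were 0.25 at 3 months, 0.31 at 9 months and -0.07 between them.

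Among 21 other genes used to mark alveolar macrophages, all had a higher mean at 3 months, with a median of 0.78, and 5 rose. Ctsk, a lysosomal cysteine protease, rose by 2.51 ± 0.28, Cd200r4, an activating CD200 receptor, by 2.50 ± 0.28, the chemokine Ccl6 by 1.95 ± 0.31 and Atp6v0d2, a proton pump subunit, by 1.66 ± 0.22 (adjusted p = 0.0208 to 0.0486). The fifth, Slc7a2, an arginine transporter, was at 1.27 ± 0.14 (adjusted p = 0.0208) and is named after its value was seen. At 9 months 5 of 21 rose, with a median of 0.37: Ctsk by 1.87 ± 0.28, Ccl6 by 1.48 ± 0.31, the aspartyl protease Ctsd by 1.21 ± 0.16, Atp6v0d2 by 1.15 ± 0.22 and, named after its value was seen, Lrp12 by 1.06 ± 0.24 (adjusted p = 0.0119 to 0.0394). Between the cre groups 3 fell and 0 rose, Cd200r4 by 1.59 ± 0.28, Car4, a carbonic anhydrase also present in capillary endothelium, by 0.91 ± 0.19 and Slc7a2 by 0.90 ± 0.14 (adjusted p = 0.0264 to 0.0402), with a median of -0.32. The list was drawn up with results of these lungs known, so its direction is not independent evidence.

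Genes of lipid handling downstream of PPAR-gamma did not form 1 direction. Of 15, 0 were called at 3 months in limma, with 4 higher at unadjusted p under 0.05 and a median of 0.18. Scd1, a fatty acid desaturase, was at 1.65 ± 0.31 (adjusted p = 0.0742) and Fabp5 at 0.90 ± 0.20 (adjusted p = 0.107). At 9 months the phospholipid transfer protein Pltp fell by 0.98 ± 0.20 (adjusted p = 0.0306), and between the cre groups Nr1h3, which encodes the oxysterol receptor LXR-alpha, rose by 0.54 ± 0.12 (adjusted p = 0.0475; call lost in 14 of 22 alternatives). Of 11 measured scavenger and lectin receptors Olr1, a receptor of oxidised lipoprotein, rose at 3 months by 1.68 ± 0.24 (adjusted p = 0.0344), and Msr1, a class A scavenger receptor like Marco, rose at 9 months by 2.20 ± 0.29 (adjusted p = 0.0117). Their medians were -0.08 and 0.36, and 0 were called between the cre groups in limma, with 3 higher and 1 lower at unadjusted p under 0.05.

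Other cells share these markers, and their genes are given here beside the members. Of 10 genes common to leukocytes and macrophages, 0 were called at 3 months in limma, with 6 higher at unadjusted p under 0.05 and a median of 0.95, about that of the members, while 4 rose at 9 months, including Cd68 by 1.33 ± 0.24 (adjusted p = 0.0233), with a median of 0.74. Lyz2, the lysozyme of macrophages and type 2 cells, fell by 2.03 ± 0.35 between the cre groups (adjusted p = 0.0306). Of 14 monocyte and interstitial macrophage genes, which can share Mrc1, 0 were called at 3 months in limma (4 higher at unadjusted p under 0.05, median 0.33). At 9 months 2 of 14 rose, among them Ms4a7 by 1.75 ± 0.42 (adjusted p = 0.0477), with a median of 0.83. Their mean log2 level was 1.47 to 1.64 in controls, 1.99 to 2.21 in 3-month cre and 2.17 to 2.78 in 9-month cre lungs, and the highest, 2.78, was 9-month cre replicate 3, where Siglecf was lowest. All 14 were well above background on every array. Their part in the member values was not tested.

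Eosinophils share Siglecf and Ear1. Of 7 measured eosinophil genes, with Epx too dim to test, 0 were called at 3 months in limma (2 higher at unadjusted p under 0.05, median 0.90). At 9 months Prg2, a granule protein, was called higher (adjusted p = 0.0327), but it was well above background in only 1 of 3 controls, so its fitted difference of 4.37 is uncertain in size (2.39 to 5.29 over the alternatives, with the call lost in 10 of 20), and Alox15 was at least 3.22-fold lower (adjusted p = 0.0125). The list mean was -2.89 to -2.68 in controls, -2.52, -0.997 and -1.17 in 3-month cre and -2.58 to -2.09 in 9-month cre lungs. Of the 7 genes 4 were well above background on all controls, 5 on all 3-month cre and 6 on all 9-month cre arrays, and Ear2 is shared with the alveolar macrophage list. In 3-month cre replicates 2 and 3, where the list was highest, Siglecf and Ear1 were also highest. Over the 9 arrays Ear1 had a Pearson r of 0.82 with the eosinophil mean and 0.69 with the mean of the other alveolar macrophage genes. For Siglecf the values were 0.44 and 0.35, all given as a description. The part of eosinophils in the Siglecf and Ear1 values was not tested.

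Dendritic cells share Itgax. Of 9 genes 0 were called at 3 months in limma (2 higher at unadjusted p under 0.05, median 0.35), and Flt3 rose at 9 months by 1.05 ± 0.13 (adjusted p = 0.0106), with a list median of 0.69. Their mean level was -1.03 to -0.56 in controls, -0.51 to -0.33 in 3-month cre lungs and -0.38, -0.97 and -0.03 in 9-month cre replicates 1, 2 and 3. Within the last group the lowest lung was also the lowest for Itgax. Over the 9 arrays Itgax had a Pearson r of 0.91 with the dendritic mean, given as a description. With the mean of the other alveolar macrophage genes r was 0.84. With the mean of the genes for factors that set the alveolar macrophage programme it was 0.92. The part of dendritic cells in the Itgax values was not tested.

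Fat cells share Fabp4 and Pparg. The 10 adipocyte genes, 0 of them called in any comparison in limma and 0 at unadjusted p under 0.05, had a mean level of -1.10, 0.89 and 0.10 in controls, 0.39, -0.36 and -0.82 in 3-month cre and -0.33, -0.20 and -1.04 in 9-month cre lungs. Fabp4 was likewise highest in control replicate 2 and lowest in control replicate 1, and among the 3-month cre lungs both were highest in replicate 1 and lowest in replicate 3. Over the 9 arrays Fabp4 and the adipocyte mean had a Pearson r of 0.90 and a Spearman rho of 0.93, given as a description, while for Pparg r was -0.20. All 10 were well above background on every array, and their part in the Fabp4 values was not tested.

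Other lists follow. Endothelial genes had medians of 0.04 at both times, with Mmrn1, a lymphatic endothelial gene, up by 1.08 ± 0.19 (adjusted p = 0.0233) and Kdr down by 0.96 ± 0.16 (adjusted p = 0.0199) at 9 months. Of 12 lung epithelial, 8 measured keratinocyte and 8 proliferation genes, 0 were called in any comparison in limma, with 2 epithelial and 1 proliferation gene higher and 1 keratinocyte gene lower at unadjusted p under 0.05 at 3 months. The keratinocyte median, which bears on Krt79, was 0.0089 at 3 months and -0.28 at 9 months. At 9 months 6 of the 8 keratinocyte means were lower, with 2 genes lower and 0 higher at unadjusted p under 0.05 in limma. The epithelial mean level was 5.05 to 5.17 in controls, 5.33 to 5.45 in 3-month cre lungs and 5.46, 5.24 and 4.85 in 9-month cre replicates 1, 2 and 3, in the same order of these 3 lungs as Krt79 and Plet1. Over the 9 arrays its Pearson r was 0.85 with Krt79, 0.81 with Plet1 and 0.73 with Siglecf, given as a description. With the mean of the 21 other alveolar macrophage genes r was higher for Plet1, at 0.95, and lower for Krt79, at 0.46, and Siglecf, at 0.35. The part of epithelium in the values of these members was not tested. Proliferation medians were 0.85 at 3 months and 0.97 at 9 months. The proliferation mean level was -1.26 to -0.75 in controls and -0.22 to 0.21 in 3-month cre lungs. In 9-month cre replicates 1, 2 and 3 it was -0.52, -1.05 and 1.55, so that replicate 2 lay within the control range. Of 8 neutrophil genes 2 rose at 9 months, Camp by 4.91 ± 0.79 (adjusted p = 0.0182) and Ngp at least 21.2-fold (adjusted p = 0.0163), and 0 at 3 months in limma, with 3 at unadjusted p under 0.05.

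**Figure D4:**
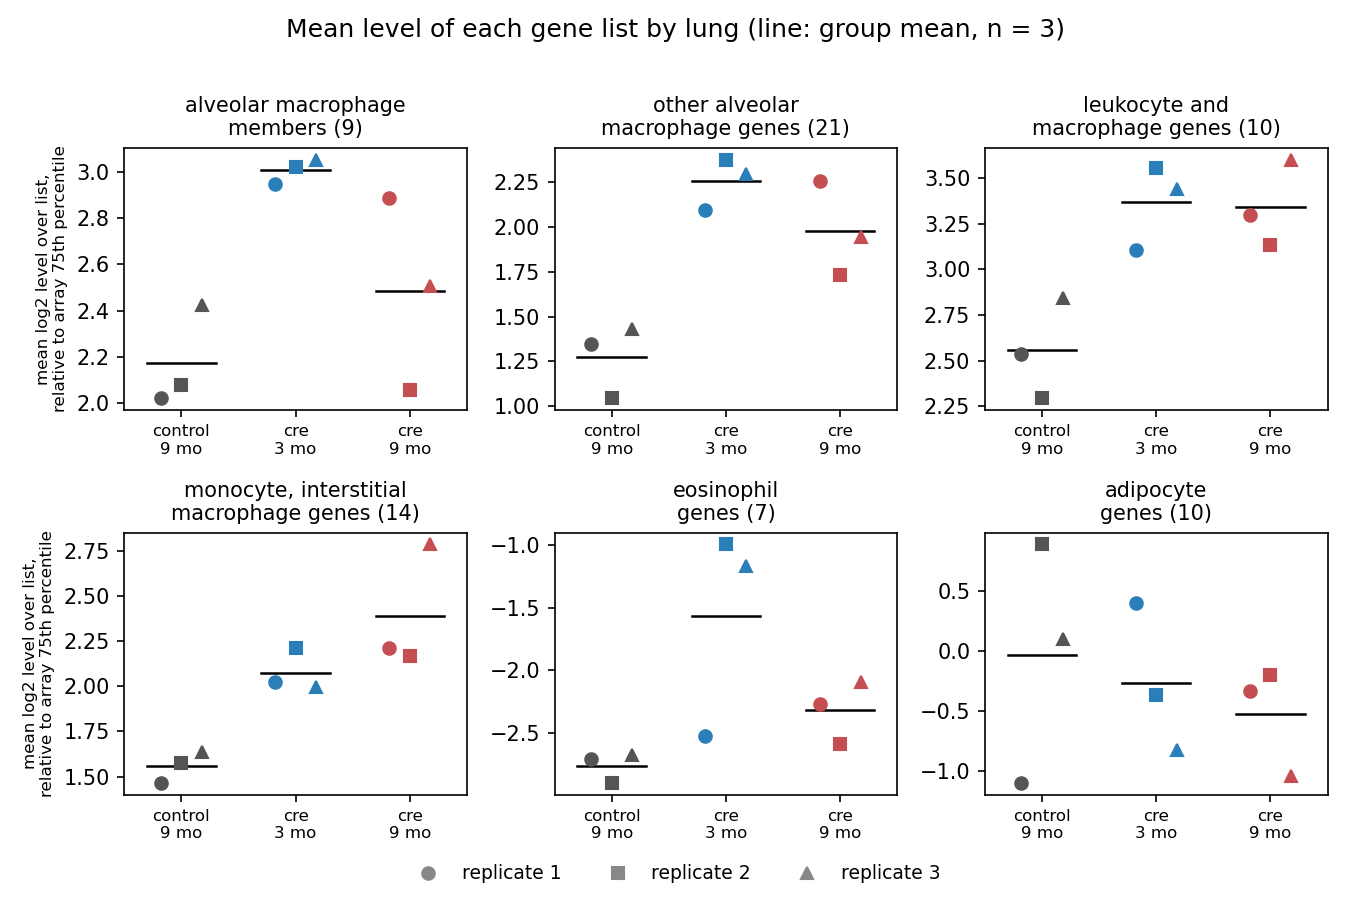
Each panel plots the mean log2 level of a gene list in the 9 lungs, relative to the array 75th percentile, with the group mean as a line. The members and the 21 other alveolar macrophage genes are highest in 3-month cre lungs and 9-month cre replicate 1, the monocyte and interstitial genes are highest in 9-month cre replicate 3, at 2.78, and the adipocyte genes span -1.10 to 0.89 within the controls.

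The genes whose course over the 9 lungs was most like the members' mean profile were Thumpd3 (Pearson r = 0.973), Gorasp2 (0.968), Fndc7 (0.965), Vti1b (0.964), Coprs (0.956), Chil1 (0.956), Xlr (0.955), Cd200r4 (0.953), Foxn4 (0.953) and Pole4 (0.952). The profile averaged each member's level scaled to the same spread, and stood at -0.82 to -0.26 in controls, 0.60 to 0.79 in 3-month cre lungs and 0.47, -0.73 and -0.06 in 9-month cre lungs. Of these 10, Cd200r4 alone was called against controls, at 3 months. The names are a description of 9 arrays that share slide and group.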

How the data were processed

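Per the labels, total RNA of 9 whole lungs was labelled with Cy3 and hybridised to one-colour Agilent arrays. Per the file headers, Agilent Feature Extraction wrote the signal intensity of each spot, with background subtracted within the array and no scaling between arrays. The deposited values give 1 intensity per probe on a linear scale, with medians of 163.3 to 164.1 on the 9 arrays. How the authors made the medians alike is not known from these sources. The deposited values served as an alternative. Direction and scale follow the scanner signal (r of log2 values with the median signal 0.9995 to 0.9999).

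Each array held 62976 spots, 59305 of them not controls, for 56605 probes. Outlier spots were left out, spots of a probe averaged, and log2 processed signal taken relative to the 75th percentile of the array. A probe was kept if all arrays of any 1 group had it well above background (37646 probes), and 32994 probes had 1 symbol through RefSeq transcripts, none several. The brightest probe stood for a gene. The 3 groups entered 1 fit in limma 3.58.1 (R 4.3.3) with group means, 6 residual degrees of freedom and Benjamini-Hochberg adjustment within a contrast, and every named probe was tested the same way. A call is an adjusted p under 0.05. An "at least" fold sets signals below an array's dimmest well-above-background signal to that signal. The fit was tested on simulated data. The members, the 14 further lists and the naming rule were chosen with earlier results of these data known. The rule names all members, from each list the called genes with the largest change (up to 4, otherwise up to 2 as values) and the 10 genes most like the members, and not all of them are reported here.

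Same-numbered lungs of different groups did not deviate together (correlation of deviations -0.236 to 0.045), so no pairing was used. Alternatives changed background correction, scaling, source, filter, probe rule, covariates, variance model and samples. The number of arrays limits precision.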

Additional observations from a re-analysis of the deposited data

Results flagged for a closer look

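The 3-month and 9-month cre lungs, compared with the same controls, differed from each other by a direct test (limma, adjusted p under 0.05) for 1 probe of a member and for 8 genes of the other lists. By list, the 8 were 1 higher and 1 lower of 14 regulators, 3 lower of 21 other markers and 1 higher of 15 lipid genes. Of 10 leukocyte and 7 measured eosinophil genes 1 each was lower, and the other lists had 0. Over all genes, 4.99% were called. Values are log2 differences of 9-month minus 3-month cre lungs, 3 against 3. The dimmer probe of Plet1 was at -0.64 (adjusted p = 0.0408), with all 9-month lungs between the controls and the 3-month lungs, while its brighter probe was not called. It is 1 of 13 member probes, where 9.07% of all named probes and 4.99% of all genes were called in this comparison. Cd200r4 was at -1.59 (adjusted p = 0.0309), Car4 at -0.91 (adjusted p = 0.0402) and Slc7a2 at -0.90 (adjusted p = 0.0264), all markers of alveolar macrophages with higher means at 3 months than in controls. Car4 is also present in capillary endothelium. Lyz2 was at -2.03 (adjusted p = 0.0306), and its probe may also bind Lyz1. Tgfbr1 was at -0.58 (adjusted p = 0.0494), Cebpb at 0.77 (adjusted p = 0.029) and Nr1h3 at 0.54 (adjusted p = 0.0475). Over 22 alternatives the call was lost in 17 for Tgfbr1 (values of -0.67 to -0.12), 14 for Nr1h3, 12 for Car4, 10 for Cebpb, 9 for Lyz2, 8 for Cd200r4 and 7 for Slc7a2. Alox15 had a fitted difference of -3.66 (adjusted p = 0.0201), was not well above background in any 9-month lung, and was at least 3.38-fold lower (call lost in 7 of 21 alternatives). Groups of 3 are too small for the check of single outlying lungs. The cause of these differences was not tested.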

How the results depend on the processing

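Over 27 member differences and 585 alternative values, 542 kept direction and side of the threshold, 17 lost the call, 10 gained it and 16 turned sign. Most of these differences had no call to lose. All 17 lost calls were those of Mrc1, in 9 of 22 alternatives at 3 months and 8 of 21 at 9 months. For the other named genes the counts were 1494 of 1809 kept, 270 lost, 39 gained and 6 turned. Among the genes named above, calls lost in most alternatives were those of Csf2ra (13 of 21 alternatives) and Ms4a7 (12 of 21) at 9 months and of Tgfbr1 (17 of 22), Nr1h3 (14 of 22) and Car4 (12 of 22) between the cre groups. With 1 probe per gene, the single member called at 9 months became 0 with slide as a block, with the replicate number as a block, with Xist as a covariate and with only the 2 groups, and ranged from 0 to 4 with single lungs left out. At 3 months it became 0 without the filter, with the slide block, the replicate block or Xist, and within slide 1, 2 with the mean of probes and 4 with 2 groups, and ranged from 0 to 2. Between the cre groups the range was 0 to 1. By probe, the 2 called at 9 months became 1 with array medians, normexp or the deposited values and 0 with 2 groups, no filter, Xist and both blocks (range 0 to 2). The 2 called at 3 months became 4 with 2 groups and 0 with no filter, Xist, both blocks and within slide 1 (0 to 3). The 1 between the cre groups became 3 with normexp or a trended robust variance, 2 with the deposited values and 0 with 2 groups, no filter, both blocks and within slide 2 (0 to 2).

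Signs turned for Fabp4 between cre groups with the mean of probes (-0.13). The slide block gave Fabp4 1.24, Ear1 -0.50, Adipoq 0.57, Plin1 0.41, Sftpb -0.18 and Lor 0.35 at 9 months, and Fabp4 0.60 and Ccr3 -0.78 at 3 months. The last 2 also turned within slide 1, where the 3-month difference is the same by design. Xist as covariate gave Krt79 0.084 at 9 months. With single lungs left out, 9-month values ran from -0.93 to 0.44 for Fabp4, -0.10 to 0.50 for Ear1 and -0.85 to 0.00098 for Krt79, 3-month Fabp4 from -1.10 to 0.27, and between cre groups Marco from -0.63 to 0.67, Itgax from -0.62 to 0.21 and Fabp4 from -0.21 to 0.64. The cause was not tested.

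Over all genes, calls at 9 months numbered 1087 and at 3 months 76. The replicate block left 317 and 42, and between the cre groups 6 of 840. Same-numbered lungs are not paired, and 1 of 9 arrays correlated best with its own number. The slide block left 0 in every comparison, no filter 489, 14 and 104, and Xist 66, 1 and 240. Fits of 2 groups gave 185, 389 and 335. Leaving out lungs gave 158 to 1638, 1 to 322 and 0 to 1224. With 3 arrays a group, slide nearly follows group and precision is set by the number of lungs.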
